A study of Mus musculus with 18 samples.

Results

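The genes of the tricarboxylic acid (TCA) cycle and of the respiratory chain were followed in bone marrow-derived macrophages of wild-type (WT) mice and of mice lacking Klf3 (KO), which encodes a Krüppel-like transcription factor with zinc fingers. The set was a fixed list of 38 gene symbols, not chosen by a threshold, and 37 of them had a probe set assigned to that symbol alone, out of 17097 genes on the array. The other gene, Cox7b, was not analysed here. The 37 genes comprised a TCA class of 19 (12 enzymes or subunits of the cycle and its cytosolic counterparts, 3 pyruvate dehydrogenase subunits and 4 subunits of succinate dehydrogenase, which is also complex II) and a respiratory class of 18 (6 subunits of complex I, 4 of complex III, cytochrome c, 4 of complex IV and 3 of ATP synthase).

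Marrow came from male FVB/NJ mice aged 10 to 14 weeks, and cells were grown for 7 to 10 days with L929-conditioned medium, a source of the macrophage growth factor M-CSF. The medium was then replaced by medium without that supplement in every group. RNA was taken directly (0 h) or 8 h later, following exposure to 100 ng/mL lipopolysaccharide (LPS), a bacterial cell wall component that activates macrophages through TLR4, or to its vehicle, phosphate-buffered saline. The 6 groups were therefore WT and KO cells at 0 h, after vehicle and after LPS, with 3 samples each, and each of the 18 samples was hybridised to 1 Affymetrix GeneChip HT MG-430PM array. The labels call the KO animals Klf3 KO without giving the allele or the deleted part of the gene, and do not say if samples of a group are separate animals or cultures. The p-values therefore cover only the scatter among these samples, which may be technical.

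The TCA cycle oxidises acetyl groups from pyruvate and fatty acids in the mitochondrial matrix and hands electrons to carriers. Complexes I and II pass these electrons to ubiquinone, complex III passes them to cytochrome c, complex IV passes them to oxygen, and ATP synthase uses the resulting proton gradient. Macrophages activated with LPS are known for breaks in this cycle, with itaconate made from a cycle intermediate and with succinate accumulating, and for a shift from respiration to glycolysis.

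All levels below are log2 of quantile-normalized probe set intensity, and all differences are log2 differences with standard errors from a linear model over the 18 arrays. A gene is said to have risen or fallen where limma's moderated test, adjusted over all 17097 genes (Benjamini-Hochberg), gave an adjusted p under 0.05. Levels of different genes are not compared, since probe sets differ in brightness. In bulk RNA, fewer cells of a type and less RNA per cell cannot be told apart. All 18 arrays showed each of the 37 genes above the level of the nonspecific controls. Of all 17097 genes 52.4% to 58.7% lay above that level in an array. Shares of all genes given below thus include genes not above it. The knockout label was checked with Klf3 itself. Its probe set with the widest gap read 82.9 to 317 intensity units in WT and 4.76 to 18.5 in KO arrays, with no overlap. Another went the other way in each condition, with means of 275 in WT and 597 in KO arrays at 0 h, 173 and 346 with vehicle, and 107 and 159 with LPS, and which probe sets lie in the deleted part is not given in the labels. All 10 measured macrophage identity genes lay above the nonspecific level in every group. The summed level of 9 neutrophil and precursor markers was 69.7 to 131 normalized intensity units in the arrays without LPS and 449 to 863 with LPS. That rise was carried by S100a8 and Camp, while S100a9, Elane and Mpo lay above the nonspecific level in 0 arrays. The difference between the 5' and 3' Gapdh control probe sets, a measure of RNA integrity and labelling (log2), ran from 0.01 to 0.15 at 0 h, from -0.32 to -0.07 with vehicle and from -0.75 to -0.07 with LPS. WT LPS array 1 and WT vehicle array 1 were both at -0.07. The same difference for Actb ran from -0.16 to -0.09 at 0 h, from -0.49 to -0.21 with vehicle and from -0.47 to -0.18 with LPS, so both control genes moved between 0 h and vehicle and only Gapdh reached lower values with LPS than with vehicle. Their part in the results was not tested. Each plate row held 1 condition, so plate row and treatment cannot be told apart.

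The promoter windows of 3 members are shown because they hold the gene that rose after LPS, a gene with the same motif that did not pass the test and a gene that fell. They are RefSeq windows of 300 bases on build GRCm38.p6 (250 bases before and 50 after the annotated start), written on the gene's own strand. Cycs, cytochrome c, lies on the minus strand with its window at chr6:50566520-50566819. Uqcrc1, a core protein of complex III, lies on the plus strand at chr9:108936398-108936697, and Mdh1, the cytosolic malate dehydrogenase, on the minus strand at chr11:21571885-21572184. Capitals mark exact matches to CGCATGCG, the core of the binding motif of NRF1, a known activator of respiratory chain genes, and to CCACACCC, a motif of Krüppel-like factors.
Cycs: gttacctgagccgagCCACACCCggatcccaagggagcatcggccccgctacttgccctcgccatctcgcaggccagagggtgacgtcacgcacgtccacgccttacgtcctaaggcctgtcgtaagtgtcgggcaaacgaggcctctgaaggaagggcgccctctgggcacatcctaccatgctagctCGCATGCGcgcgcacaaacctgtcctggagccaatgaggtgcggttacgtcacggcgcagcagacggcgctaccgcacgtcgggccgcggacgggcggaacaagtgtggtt
Uqcrc1: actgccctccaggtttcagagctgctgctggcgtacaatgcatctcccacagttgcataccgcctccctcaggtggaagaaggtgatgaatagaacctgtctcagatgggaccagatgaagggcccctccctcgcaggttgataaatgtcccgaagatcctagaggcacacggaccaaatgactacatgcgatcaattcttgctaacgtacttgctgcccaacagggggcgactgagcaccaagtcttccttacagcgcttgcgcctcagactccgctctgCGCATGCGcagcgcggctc
Mdh1: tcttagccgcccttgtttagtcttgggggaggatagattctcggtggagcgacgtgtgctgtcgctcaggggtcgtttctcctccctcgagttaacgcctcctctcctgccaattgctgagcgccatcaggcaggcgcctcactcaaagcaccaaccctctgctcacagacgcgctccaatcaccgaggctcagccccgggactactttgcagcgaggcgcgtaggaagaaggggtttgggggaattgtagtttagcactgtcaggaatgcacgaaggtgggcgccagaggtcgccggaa

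In Cycs the CCACACCC match began 235 bases before the start and the CGCATGCG match 61 bases before it. In Uqcrc1 the CGCATGCG match began 32 bases after the start. The Mdh1 window held no match to these motifs or to the other 3 that were searched on both strands, CCGGAAG (GABP and other ETS factors), TCAAGGTCA (estrogen-related receptors) and AAGATGGCG (YY1). Windows were found for 29 of the 37 genes. The NRF1 core was present in 3 of the 29 (10.3%, Cycs, Uqcrc1 and Ogdh), against 2.07% of the 27025 genes in the same table. The ETS motif was present in 5 (17.2%, against 9.93%): Idh3b, Dlst, Sdhb, Sdhd and Ndufs3. The KLF motif was present in 1 (3.45%, against 4.09%), which was Cycs. A match is a stretch of letters in this window and was not tested as a binding site.

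LPS against vehicle in WT cells asks how normal macrophages adjust these genes in the inflammatory state. Cytochrome c rose and most of the genes that changed fell. Of the 37 genes 1 rose and 16 fell (45.9% in all), where 32.3% of all genes changed, 13.7% upwards and 18.6% downwards. The median difference was -0.24, against -0.01 over all genes. Levels of the LPS and vehicle groups did not overlap for 24 of the 37 genes, where 41% of all genes did not overlap. All 37 genes lay above the nonspecific level and many of all genes did not. The shares here and in KO cells are therefore not like for like. They cannot show whether the 37 genes changed more often than other expressed genes, whose share is not given here.

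In KO cells 3 genes rose and 16 fell (51.4% in all), where 34.5% of all genes changed, 13.9% upwards and 20.6% downwards. The median difference was -0.20, against -0.03 over all genes. Groups did not overlap for 25 of the 37, against 45.5% of all genes. Called in both genotypes were 12 genes that fell and Cycs, which rose. Another 4 were called only in WT cells, 6 only in KO cells and 14 in neither, and the difference between genotypes is tested separately below.

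**Figure D1:**
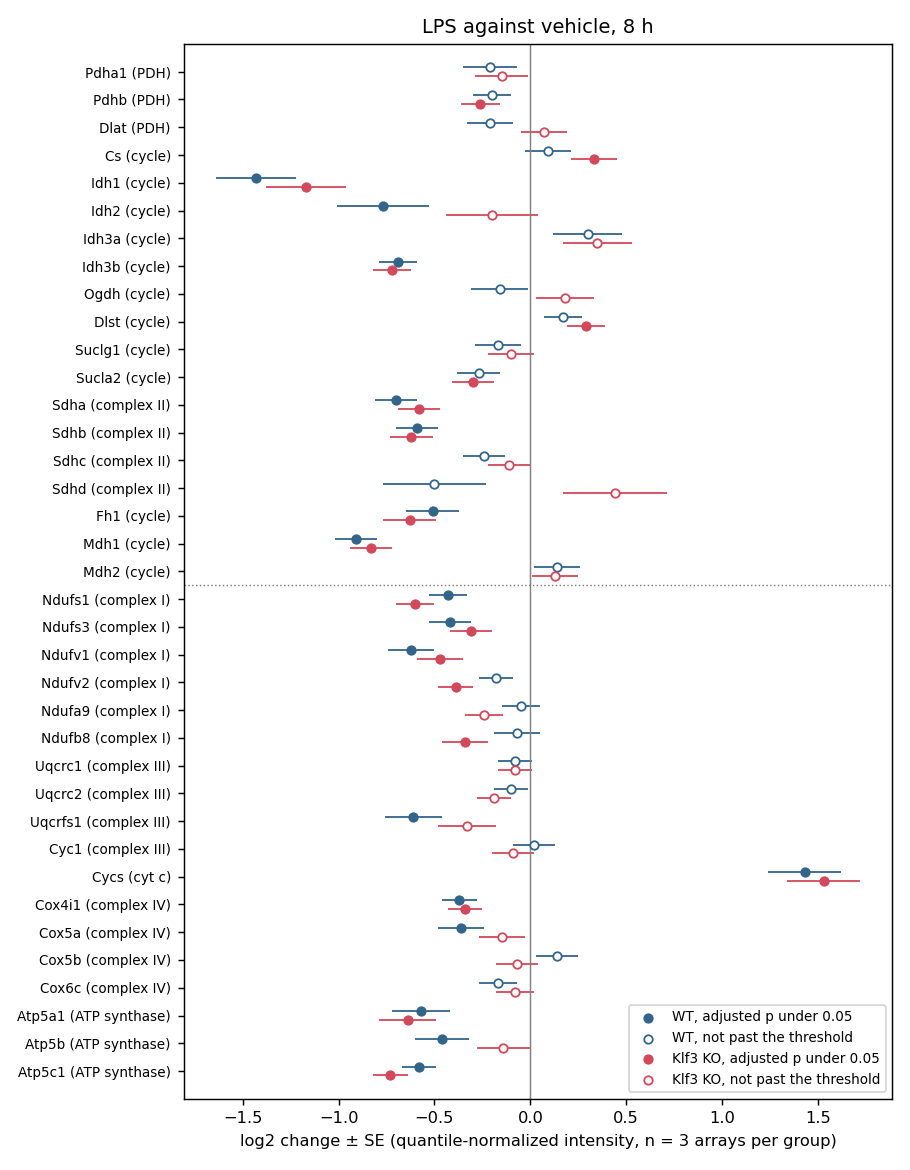
Log2 difference between LPS and vehicle after 8 h for each of the 37 genes, WT in blue and Klf3 KO in red, with the standard error as a bar (n = 3 arrays per group) and filled points for adjusted p under 0.05. The dotted line separates the 19 genes of the TCA class from the 18 of the respiratory class. Cycs lies at 1.43 and 1.53, Idh1 at -1.43 and -1.17, and the other genes lie between -0.91 and 0.44.

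Many of these calls depend on how the arrays are scaled. Upper quartiles of the deposited intensity were 67 to 107.2 in the LPS arrays and 97.6 to 167.2 in the others. Deposited values without scaling, arrays shifted to equal medians, arrays shifted to equal hybridisation controls, and cyclic loess were set beside quantile normalization. The median of all genes in WT cells after LPS was -0.01 with quantile normalization, -0.44 in deposited values and -0.43 with equal hybridisation controls. In WT cells 10 genes kept their call and direction under all 5 scalings. These were Cycs, which rose, and Idh1, Idh2, Idh3b, Sdha, Fh1, Mdh1, Ndufs1, Ndufv1 and Uqcrfs1, which fell. In KO cells only Cycs and Idh1 did so. A sign change under some scaling was seen for 11 of the 37 genes in each genotype, so the direction of those genes is not settled. The counts of rises and falls above hold for quantile normalization.

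In the TCA class Idh1 and Mdh1, both cytosolic enzymes, had the largest falls in each genotype. Idh1, the cytosolic NADP-dependent enzyme, read 11.66, 11.70 and 11.70 in WT vehicle arrays and 9.53, 10.56 and 10.69 in WT LPS arrays. It read 11.72, 11.85 and 11.51 in KO vehicle arrays and 10.38, 10.71 and 10.49 in KO LPS arrays. Vehicle and LPS groups were well apart in both genotypes, with WT LPS array 1 the lowest of all. The difference was -1.43 ± 0.21 in WT (2.69-fold lower, adjusted p = 6.44e-05) and -1.17 ± 0.21 in KO cells (2.24-fold lower, adjusted p = 0.000376), and it stayed between -1.69 and -1.07 in WT cells and between -1.24 and -0.76 in KO cells over 14 alternatives each. 

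Mdh1, which works with the cytosolic side of the malate-aspartate shuttle, read 10.50, 10.47 and 10.52 in WT vehicle arrays and 9.68, 9.49 and 9.58 in WT LPS arrays. It read 10.41, 10.47 and 10.70 in KO vehicle arrays and 9.69, 9.68 and 9.72 in KO LPS arrays. The groups were separated by about the same distance in both genotypes. The difference was -0.91 ± 0.11 in WT (adjusted p = 4.23e-06) and -0.83 ± 0.11 in KO cells (adjusted p = 9.14e-06). In KO cells it was -0.60 and not called with equal hybridisation controls.

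Idh2, the mitochondrial NADP-dependent enzyme, read 7.89, 8.00 and 7.72 in WT vehicle arrays and 7.63, 6.45 and 7.21 in WT LPS arrays. It read 7.86, 7.86 and 8.35 in KO vehicle arrays and 7.82, 7.96 and 7.67 in KO LPS arrays. The WT groups did not overlap and the KO groups did. The difference was -0.77 ± 0.24 in WT (adjusted p = 0.0175) and -0.20 ± 0.24 in KO cells (adjusted p = 0.569). The WT value rests much on array 2, since without replicate 2 it was -0.38 and not called. A second probe set of Idh2, above the nonspecific level in 14 arrays, gave -0.20 ± 0.18 in WT cells.

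Idh3b, a subunit of the NAD-dependent enzyme that serves the cycle itself, differed by -0.69 ± 0.10 in WT (adjusted p = 6.45e-05) and -0.72 ± 0.10 in KO cells (adjusted p = 3.77e-05). Fumarase, Fh1, differed by -0.51 ± 0.14 in WT (adjusted p = 0.0101) and -0.63 ± 0.14 in KO cells (adjusted p = 0.00196). In KO cells Idh3b was called in only 1 of the 4 other scalings, whereas Fh1 was called in 3. Idh3a, the catalytic subunit of the NAD-dependent enzyme, did not pass the test in either genotype (0.30 ± 0.18 and 0.35 ± 0.18, with a sign change under some scalings in WT cells). 

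At the entry of the cycle, the pyruvate dehydrogenase subunits Pdha1, Pdhb and Dlat differed by -0.21 to -0.20 in WT cells and did not pass, although each was lower and called in 1 to 3 of the other scalings. In KO cells Pdhb alone was called, at -0.26 ± 0.10 (adjusted p = 0.0421), under quantile normalization only. Citrate synthase (Cs) and Dlst, a subunit of the oxoglutarate dehydrogenase complex, rose in KO cells by 0.33 ± 0.12 (adjusted p = 0.0338) and 0.29 ± 0.10 (adjusted p = 0.0279), called in 3 and 2 of the 4 other scalings. In WT cells their values were 0.09 ± 0.12 and 0.17 ± 0.10, with a sign change under some scalings. The mitochondrial malate dehydrogenase, Mdh2, did not pass in either genotype, at 0.14 ± 0.12 (with a sign change under some scalings) and 0.13 ± 0.12, while its cytosolic counterpart Mdh1 fell. In the 4 other scalings Mdh2 was higher and called in 1 in WT cells and in 2 in KO cells, where it lay between 0.41 and 0.55.

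Complex II belongs to both pathways. Sdha, its flavoprotein, read 10.16, 10.02 and 10.19 in WT vehicle arrays and 9.53, 9.39 and 9.34 in WT LPS arrays. It read 10.13, 9.88 and 10.12 in KO vehicle arrays and 9.60, 9.34 and 9.46 in KO LPS arrays. The groups did not overlap in either genotype. The difference was -0.70 ± 0.11 in WT (adjusted p = 0.000115) and -0.58 ± 0.11 in KO cells (adjusted p = 0.000578). As the mean of all 4 Sdha probe sets it was -0.30 in WT cells and not called, and 1 of these probe sets lay above the nonspecific level in 0 arrays. Sdhb, the iron-sulfur subunit, differed by -0.59 ± 0.11 in WT (adjusted p = 0.000375) and -0.62 ± 0.11 in KO cells (adjusted p = 0.000195). In KO cells Sdha and Sdhb were each called in 1 of the 4 other scalings. The membrane anchors Sdhc and Sdhd did not pass in either genotype. In WT cells Sdhd (-0.50 ± 0.27) was lower and called in 3 of the 4 other scalings and Sdhc (-0.24 ± 0.11) in 1, and the WT LPS arrays of Sdhd ranged widely, from 4.81 to 5.90.

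In the respiratory class cytochrome c was the only gene that rose under quantile normalization, in either genotype. Cycs, the mobile carrier between complexes III and IV, read 8.99, 8.99 and 9.14 in WT vehicle arrays and 10.92, 10.33 and 10.15 in WT LPS arrays. It read 8.98, 8.78 and 9.35 in KO vehicle arrays and 10.75, 10.39 and 10.57 in KO LPS arrays. Every LPS array lay above every vehicle array. The difference was 1.43 ± 0.19 in WT (2.69-fold, adjusted p = 1.86e-05) and 1.53 ± 0.19 in KO cells (2.89-fold, adjusted p = 7.19e-06). Within the 3 plate columns it was 1.93, 1.01 and 1.34 in WT and 1.61, 1.76 and 1.22 in KO cells. A second bright probe set gave 1.99 ± 0.16 in WT and 1.79 ± 0.16 in KO cells. Cycs has 3 probe sets, and values of the third are not given here. Over 14 alternatives, which include the mean of all its probe sets, the rise kept its call. It ran from 1.07 to 1.63 in WT and from 1.11 to 1.86 in KO cells. The genome holds processed copies of Cycs, and their part in the signal was not tested.

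**Figure D2:**
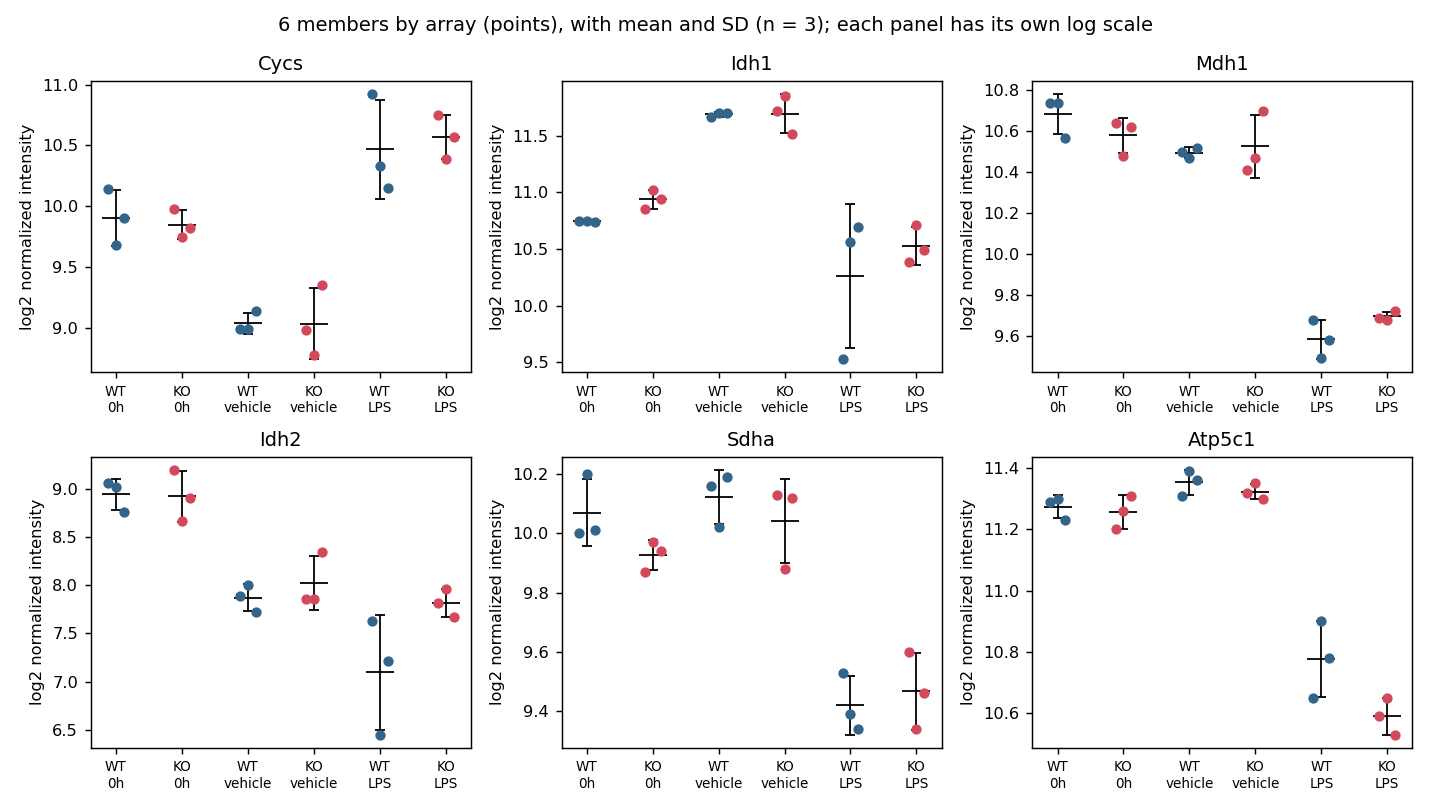
Log2 normalized intensity of Cycs, Idh1, Mdh1, Idh2, Sdha and Atp5c1 in each array (points, WT blue and KO red), with the mean and SD of each group (n = 3), each panel on its own log2 axis. Cycs in vehicle arrays lies between 8.78 and 9.35 and in LPS arrays between 10.15 and 10.92, whereas the means of the other 5 genes are lower with LPS than with vehicle, with overlapping KO groups for Idh2.

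In complex I the flavin-binding core subunit gene Ndufv1 and the iron-sulfur core subunit gene Ndufs1 fell after LPS in both genotypes. Ndufv1 differed by -0.62 ± 0.12 in WT (adjusted p = 0.000566) and -0.47 ± 0.12 in KO cells (adjusted p = 0.00467), and Ndufs1 by -0.43 ± 0.10 (adjusted p = 0.00342) and -0.60 ± 0.10 (adjusted p = 0.00021). A second probe set of Ndufv1 gave -0.02 ± 0.12 in WT cells, so the probe sets of Ndufv1 disagree. Of the 6 complex I genes 3 were called lower in WT cells and 5 in KO cells under quantile normalization, with a median of -0.30 and -0.36. Ndufv2, another iron-sulfur subunit, was not among them in WT cells (-0.18 ± 0.09, with a sign change under cyclic loess), and Ndufb8 in KO cells changed sign with equal medians. In complex III the Rieske protein gene Uqcrfs1 fell in WT cells by 0.61 ± 0.15 (adjusted p = 0.00508), whereas in KO cells it differed by -0.33 ± 0.15 (adjusted p = 0.114). The core protein genes Uqcrc1 and Uqcrc2 and cytochrome c1 (Cyc1) did not pass in either genotype, with WT values from -0.10 to 0.02 and a sign change under some scalings for each. Uqcrc1, whose promoter shares the NRF1 core with Cycs, differed by -0.08 ± 0.09 in each genotype.

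In complex IV Cox4i1 differed by -0.37 ± 0.09 in WT (adjusted p = 0.00378) and -0.34 ± 0.09 in KO cells (adjusted p = 0.00633) under quantile normalization. In WT cells it was called in 1 of the 4 other scalings. In KO cells it was called in 0 of them, at -0.01 in deposited values, 0.02 with equal hybridisation controls and 0.10 with equal medians, so its direction there is not settled. Cox5a was called in WT cells only (-0.36 ± 0.12, adjusted p = 0.0361), and in none of the 4 other scalings. Cox5b and Cox6c did not pass in either genotype, although Cox5b in WT cells (0.14 ± 0.11) was higher and called with equal medians (0.40) and cyclic loess (0.46). All 3 ATP synthase genes among the 37 fell in WT cells under quantile normalization, 1 of them (Atp5c1) in 3 of the 4 other scalings and the others in 1. Atp5c1, the gamma subunit, differed by -0.58 ± 0.09 in WT (adjusted p = 0.000133) and -0.73 ± 0.09 in KO cells (adjusted p = 1.07e-05). Atp5a1, the alpha subunit, differed by -0.57 ± 0.15 (adjusted p = 0.00815) and -0.64 ± 0.15 (adjusted p = 0.00316). Atp5b, the beta subunit, was called in WT cells only, at -0.46 ± 0.14 (adjusted p = 0.0161), against -0.14 ± 0.14 in KO cells, where its sign changed under the other 4 scalings. In KO cells Atp5a1 was called in 0 of the 4 other scalings and Atp5c1 in 1.

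Set beside each other, the classes had median differences within 0.13 of each other under quantile normalization, and which of them was lower depended on the scaling. In the TCA class 7 of 19 genes fell in WT cells and 0 rose, with a median of -0.24, and in the respiratory class 9 of 18 fell and 1 rose, with a median of -0.27. In KO cells 8 fell and 2 rose in the TCA class (median -0.15), and 8 fell and 1 rose in the respiratory class (median -0.27). In deposited values the WT medians were -0.84 and -0.54, with equal medians -0.46 and -0.15, and with cyclic loess -0.16 and -0.05, so the TCA class was the lower in WT cells under these scalings. In KO cells the medians were -0.14 and -0.04 in deposited values. Counting complex II with the respiratory class gave WT medians of -0.21 for the remaining 15 TCA class genes and -0.37 for the 22 respiratory genes. The spread within each class, from -1.43 to 0.30 in the TCA class and from -0.62 to 1.43 in the respiratory class of WT cells, was wider than any of these gaps.

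A difference of class means within an array does not move with a shift of the whole array. It was taken here from quantile-normalized levels only, and quantile normalization is not such a shift. The gap between class medians given above moved with the scaling. The mean of the TCA class minus that of the respiratory class, each gene taken from its mean over the 18 arrays, was -0.24, -0.18 and 0.00 in the WT LPS arrays and 0.01, 0.07 and 0.01 in the WT vehicle arrays. It was 0.03, 0.09 and -0.02 in the KO LPS arrays and 0.00, 0.00 and 0.12 in the KO vehicle arrays. Of the 3 WT LPS arrays 2 held the lowest values of all 18 and the other lay at 0, and the KO groups overlapped. No test was made over the class, because its genes were listed with earlier results of these data known.

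**Figure D3:**
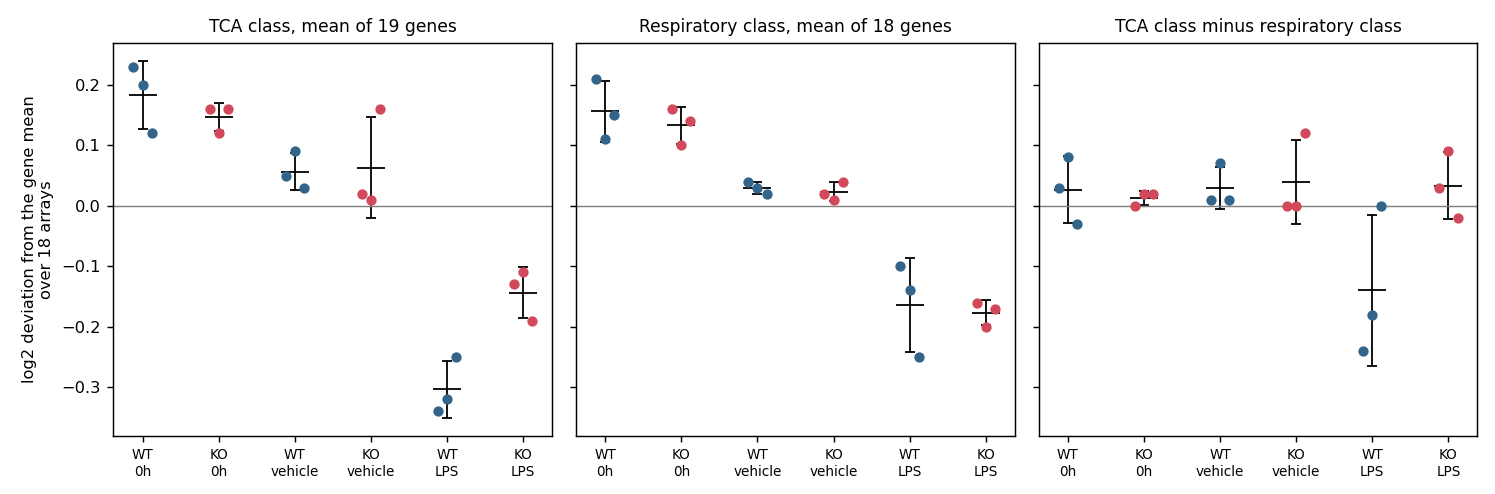
Mean deviation (log2) of the 19 TCA class genes, of the 18 respiratory class genes and the difference between these means in each array (points, WT blue and KO red), with the mean and SD of each group (n = 3). Both classes are lowest in the LPS groups, with the TCA class at -0.34 to -0.25 in WT and -0.19 to -0.11 in KO cells. The difference between classes stays between -0.03 and 0.12 in the other 5 groups. These values hold for quantile normalization.

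The other genes of these pathways were taken from lists that were written with earlier results of these data known, and their counts stand against the 32.3% of all genes called in WT and 34.5% in KO cells. Among 11 other TCA and pyruvate dehydrogenase genes, 2 rose and 6 fell in WT cells and 1 rose and 6 fell in KO cells. The rises were not called in deposited values, with equal medians or with equal hybridisation controls. Under these, 0 were higher in either genotype, with 6 to 8 lower in WT and 5 lower in KO cells. The falls were largest in regulators of pyruvate dehydrogenase. Pdp1, a phosphatase that activates the complex, differed by -2.35 ± 0.42 in WT (adjusted p = 0.00035) and -3.13 ± 0.42 in KO cells (adjusted p = 1.86e-05), where 1 of the 3 LPS arrays (3.50) was not above the nonspecific level. Its regulatory subunit Pdpr fell by 1.45 and 1.38, and the inhibitory kinase Pdk2 by 1.39 and 1.71. The kinase Pdk1 rose by 0.86 and 0.63, called in 1 of the 4 other scalings in each genotype.

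Among 12 genes of routes into and out of the cycle, 4 rose and 5 fell in WT cells and 4 rose and 4 fell in KO cells. The WT count was 1 higher and 8 lower in deposited values. Acod1, the enzyme that makes itaconate from cis-aconitate, read 9.02, 8.18 and 8.62 in WT vehicle arrays and 12.97, 12.78 and 12.81 in WT LPS arrays. It read 9.04, 8.59 and 8.42 in KO vehicle arrays and 12.84, 12.84 and 13.02 in KO LPS arrays. Its rise was 4.25 ± 0.43 in WT (adjusted p = 9.62e-07) and 4.22 ± 0.43 in KO cells (adjusted p = 7.93e-07), larger than any change within the 37 genes. Pyruvate carboxylase (Pcx), which refills oxaloacetate, rose by 1.17 and 1.77, and the dicarboxylate carrier Slc25a10 by 1.10 and 1.04. In WT cells each was called in 2 of the 4 other scalings. Bckdha, of branched-chain amino acid breakdown, fell by 1.32 and 1.13, and glutamate dehydrogenase (Glud1) fell by 0.96 and 0.86.

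Of 27 other complex I subunits 2 rose and 9 fell in WT cells and 1 rose and 7 fell in KO cells (40.7% and 29.6% in all). This balance turned with the scaling, to 5 higher and 4 lower in WT cells with cyclic loess and to 4 higher and 2 lower in KO cells with equal medians, and no gene was called in KO cells with equal hybridisation controls. Ndufa6 had the largest fall, by 1.42 and 0.86. Of 23 other genes listed under complexes III and IV and ATP synthase 0 rose and 5 fell in each genotype (21.7%, below the share of all genes). In KO cells the balance turned to 4 higher and 2 lower with equal medians. Atp5g2 fell by 1.43 and 1.12, and Cox7a2l fell by 1.31 and 0.86. Among 19 assembly factors 5 rose and 5 fell in WT cells and 6 rose and 4 fell in KO cells (52.6% in each). In WT cells this was 0 higher and 10 lower in deposited values, 0 and 9 with equal hybridisation controls and 2 and 9 with equal medians. Cox17, a copper chaperone for complex IV, rose by 0.79 and 1.19 (in WT cells in 2 of the 4 other scalings), and Surf1, another complex IV assembly factor, fell by 0.99 and 0.91. Among 16 regulators of mitochondrial gene expression 4 rose and 3 fell in WT cells and 5 rose and 4 fell in KO cells. Esrra, which encodes the estrogen-related receptor alpha, rose by 1.29 and 1.26, and Gabpa, a subunit of the ETS factor GABP, fell by 1.01 and 1.00. Among 21 other mitochondrial proteins 4 rose and 8 fell in WT cells and 5 rose and 4 fell in KO cells. This was 1 higher and 12 lower in WT cells in deposited values, and 8 higher and 1 lower in KO cells with equal medians. The mitochondrial superoxide dismutase Sod2 rose by 2.78 and 2.74, and the phosphate carrier Slc25a3, which feeds ATP synthase, fell by 0.77 and 0.56, in KO cells in 1 of the 4 other scalings.

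Vehicle after 8 h against 0 h compares cells kept 8 h in the medium without supplement with cells taken directly, both without LPS. Plate row and the 5' to 3' control differences also changed between these groups, and their part was not tested. Of the 37 genes 1 rose and 5 fell in WT cells (16.2% in all), where 14.2% of all genes changed (7.17% upwards and 7.01% downwards), and 1 rose and 4 fell in KO cells (13.5% in all), where 12.6% changed (6.78% upwards and 5.8% downwards). Levels did not overlap for 19 and 14 of the 37 genes, against 36.3% and 33.6% of all genes. These comparisons share the vehicle arrays with the LPS comparisons, so values are given side by side only.

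Idh1 and Idh2 moved in opposite directions here. Idh1 read 10.75, 10.75 and 10.74 in WT and 10.85, 11.02 and 10.94 in KO arrays at 0 h, all below the vehicle arrays given above. It rose by 0.94 ± 0.21 in WT (adjusted p = 0.00686) and 0.76 ± 0.21 in KO cells (adjusted p = 0.0283). It was called in 2 of the 4 other scalings in WT and in 1 in KO cells, and in KO cells it was not called when any 1 replicate was left out. Idh2 read 9.06, 9.02 and 8.76 in WT and 9.20, 8.67 and 8.91 in KO arrays at 0 h, all above the vehicle arrays. It fell by 1.08 ± 0.24 in WT (adjusted p = 0.00508) and 0.90 ± 0.24 in KO cells (adjusted p = 0.0181), under all 5 scalings in both. In KO cells it was not called without replicate 1 (-0.68) or 2 (-0.95), nor as the mean of its probe sets (-0.41).

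Cycs read 10.14, 9.68 and 9.90 in WT and 9.98, 9.75 and 9.82 in KO arrays at 0 h. These levels lay above all vehicle arrays and below all LPS arrays. It fell by 0.87 ± 0.19 in WT (adjusted p = 0.00511) and 0.81 ± 0.19 in KO cells (adjusted p = 0.00908). Pdha1 fell by 0.53 ± 0.14 (adjusted p = 0.0169) and 0.51 ± 0.14 (adjusted p = 0.0234). Idh3a and Dlst fell in WT cells, by 0.72 ± 0.18 (adjusted p = 0.0116) and 0.36 ± 0.10 (adjusted p = 0.0178), and Uqcrfs1 in KO cells, by 0.48 ± 0.15 (adjusted p = 0.0478). Sdha did not pass, at 0.05 ± 0.11 in WT and 0.12 ± 0.11 in KO cells, with a sign change under some scalings. Apart from Cycs and Uqcrfs1, the respiratory class thus had no called gene. The calls depended on the number of arrays: leaving out 1 KO replicate left 0 calls (replicates 1 and 2) or 2 (replicate 3) in KO cells, and leaving out any 1 WT replicate left 3 in WT cells.

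**Figure D4:**
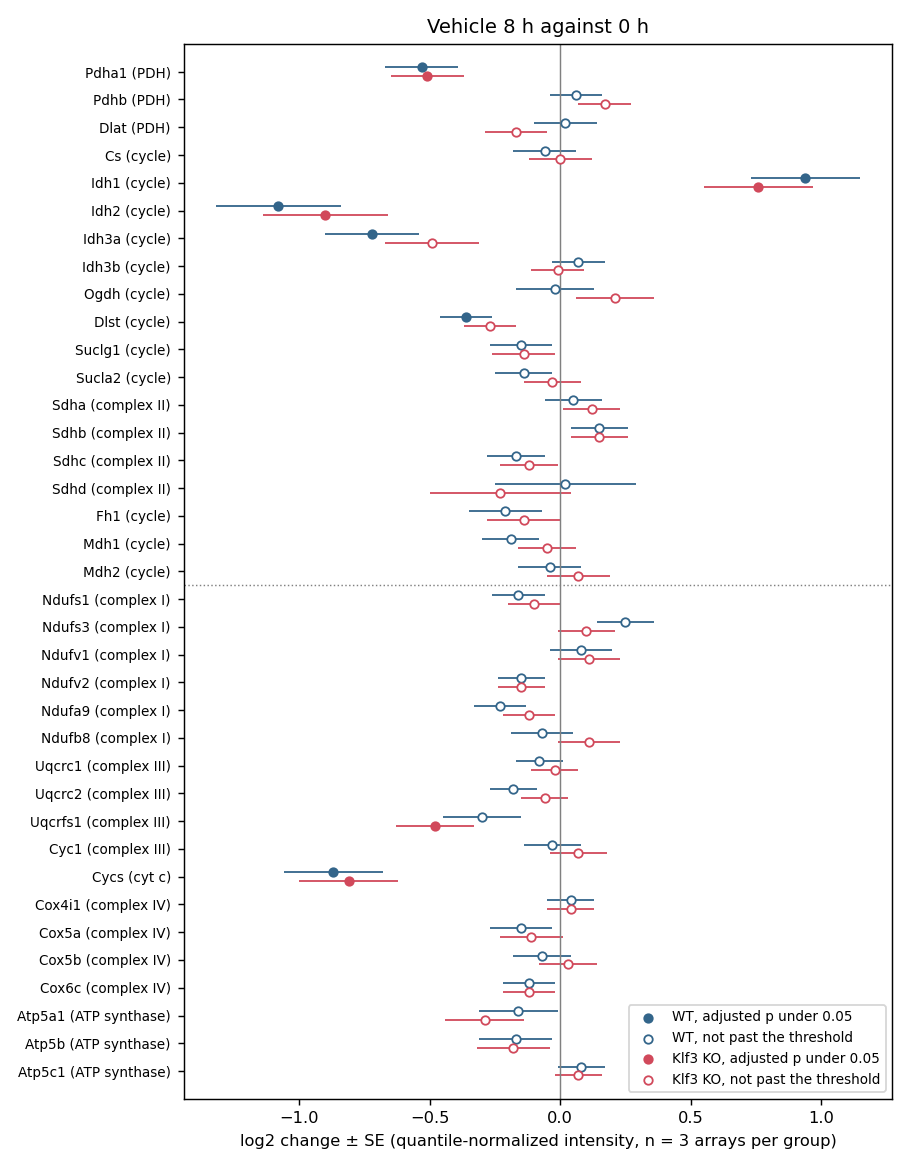
Log2 difference between vehicle after 8 h and 0 h for each of the 37 genes, WT in blue and Klf3 KO in red, with the standard error as a bar (n = 3 arrays per group) and filled points for adjusted p under 0.05. Idh1 lies at 0.94 and 0.76, Idh2 at -1.08 and -0.90 and Cycs at -0.87 and -0.81.

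KO against WT asks whether loss of Klf3 altered these genes in any condition. None of the 37 passed limma's test at 0 h, after vehicle or after LPS, where 0.14%, 0% and 5.96% of all genes did. Over all genes 0.111% were higher and 0.0292% lower in KO cells at 0 h, and 2.81% were higher and 3.15% lower after LPS. At an unadjusted p under 0.05 the counts were 0, 0 and 4 of the 37, against 6.19%, 4.54% and 19% of all genes. The count of 4 after LPS was thus below the share of all genes. Groups did not overlap for 3, 3 and 9 of the 37 genes, against 14.6%, 12% and 18.5% of all genes. The 95% intervals lay within 0.5 (1.41-fold) of no difference for 33 of 37 genes at 0 h, 35 after vehicle and 31 after LPS. For Cycs the difference after LPS was 0.10, with an interval from -0.30 to 0.51, and for Sdha it was 0.04, from -0.19 to 0.28.

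The 4 genes at an unadjusted p under 0.05 after LPS all belonged to the TCA class and had a higher mean in KO cells, although none passed the adjusted test. Idh2, with the levels given above, differed by 0.72 ± 0.24 (adjusted p = 0.0867). Its KO LPS arrays lay above its WT LPS arrays without overlap, at 7.67 to 7.96 against 6.45 to 7.63. It was called in deposited values (1.07, adjusted p = 0.0258), with equal hybridisation controls (1.11, adjusted p = 0.0368) and without WT replicate 1 (0.99, adjusted p = 0.0262). Ogdh, the first subunit of the oxoglutarate dehydrogenase complex, read 8.20, 8.45 and 8.08 in KO and 7.85, 7.71 and 7.98 in WT LPS arrays, a difference of 0.40 ± 0.15 (adjusted p = 0.144), and was called in deposited values (0.79, adjusted p = 0.0279). In deposited values and with equal hybridisation controls this comparison was shifted upwards in other genes too. The median of 27 other complex I subunits was 0.34 and 0.38 there, against -0.03 with quantile normalization. Upper quartiles of deposited intensity were 67 to 75.9 in WT and 76.2 to 107.2 in KO LPS arrays. The part of this shift in the calls of Idh2 and Ogdh was not tested. Sdhd differed by 0.65 ± 0.27 (adjusted p = 0.202) and Dlat by 0.31 ± 0.12 (adjusted p = 0.174). The second probe set of Idh2 gave 0.13 ± 0.18.

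**Figure D5:**
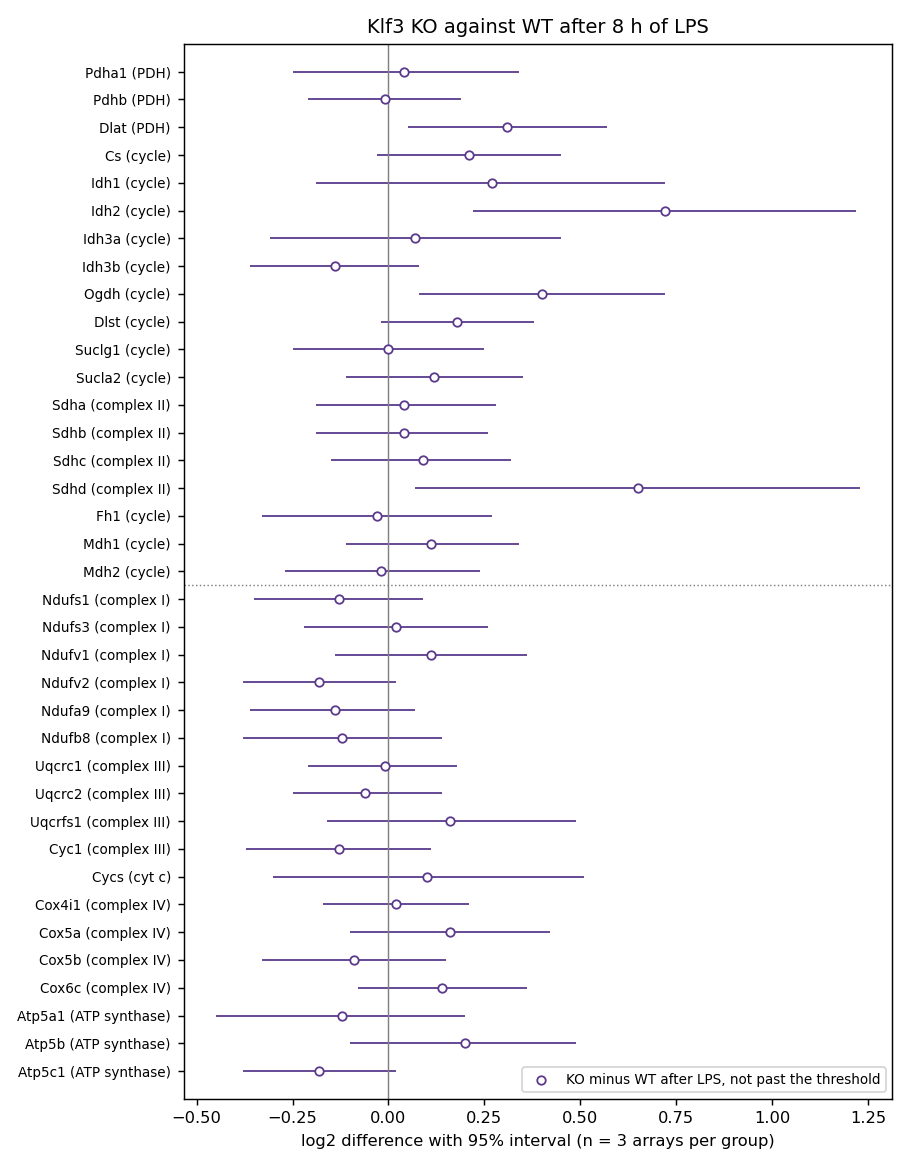
Log2 difference between Klf3 KO and WT cells after 8 h of LPS for each of the 37 genes, with 95% intervals (n = 3 arrays per group). No gene has an adjusted p under 0.05, and the intervals of Idh2, Sdhd, Ogdh and Dlat lie above 0.

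The difference between genotypes in the LPS response was tested directly. None of the 37 genes passed limma's test, where 1.12% of all genes did (0.521% with a higher and 0.597% with a lower response in KO cells). At an unadjusted p under 0.05 there was 1 of the 37, against 12.1% of all genes. That gene was Sdhd, at 0.94 ± 0.39 (KO minus WT, unadjusted p = 0.0268, adjusted p = 0.322), whose WT LPS arrays overlapped its vehicle arrays. For Idh1, Idh2 and Cycs the differences were 0.26 (95% interval -0.38 to 0.90), 0.57 (-0.14 to 1.27) and 0.11 (-0.46 to 0.68). Intervals lay within 0.5 of no difference for 21 of 37 genes, so for the others a difference of 1.41-fold between the responses is within the error. Calls made in only 1 genotype above are therefore not shown to differ between genotypes. For the change from 0 h to vehicle, 0 of the 37 genes passed and 0 had an unadjusted p under 0.05. Of all genes 0% passed and 3.68% had an unadjusted p under 0.05.

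Of the 129 other pathway genes 1 passed the test of the difference between LPS responses (0.775%, against 1.12% of all genes). That gene was Ttc19, an assembly and quality factor of complex III. It read 5.11, 4.74 and 4.96 in WT vehicle and 6.19, 5.26 and 5.87 in WT LPS arrays. It read 4.69, 4.67 and 5.01 in KO vehicle and 6.85, 6.90 and 6.92 in KO LPS arrays. The vehicle arrays overlapped and the KO LPS arrays lay above all WT LPS arrays. It rose by 0.84 ± 0.19 in WT (adjusted p = 0.0024) and 2.10 ± 0.19 in KO cells (adjusted p = 2.26e-07), and the difference between responses was 1.26 ± 0.27 (adjusted p = 0.0288). That difference was not called without WT replicate 2 or 3 or without any 1 KO replicate, and ran from 0.69 to 1.65 over 17 alternatives. Between genotypes after LPS it differed by 1.12 ± 0.19 (adjusted p = 0.00203). Pcx (0.89 ± 0.24, adjusted p = 0.0375) and the complex I subunit Ndufa12 (0.50 ± 0.12, adjusted p = 0.0164) were also higher in KO cells after LPS, while the difference between their LPS responses did not pass (0.60 ± 0.34 and 0.44 ± 0.16). Pcx read 6.82, 7.39 and 6.91 in KO and 6.28, 6.03 and 6.14 in WT LPS arrays. Pcx lost its call in 7 of 16 alternatives and Ndufa12 in 5. Of the 129 other pathway genes 5 were higher and 1 lower in KO cells after LPS (4.65%, against 5.96% of all genes), and 0 passed at 0 h or after vehicle. The lower gene was Ppargc1b, a coactivator of mitochondrial gene expression (-0.73 ± 0.20, adjusted p = 0.036), which lost its call in 10 of 16 alternatives.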

How the data were processed

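RNA was labelled by a 3' in vitro transcription kit, per the series' design text. The deposited value table holds linear intensity per probe set, made by the authors with Partek, per the submitters' processing notes. For its version, background correction and scaling no statement is given in the sources used here, and the arrays' totals differ, so the table was treated as not normalized between arrays, although quantile-normalized log2 values had been assumed when the tests were written.

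Of 45141 probe sets, 104 were controls and 28898 had 1 gene symbol in the platform annotation (551 had several, 15588 none). Values were log2 transformed and quantile normalized without controls. The probe set with the highest mean stood for each of 17097 genes, 7180 of which had more than 1. With R 4.3.3 and limma 3.58.1, a model with a mean for each of the 6 groups was fitted to the 18 arrays and 9 contrasts were tested (two-sided, empirical Bayes, Benjamini-Hochberg over all genes, threshold 0.05), after a test on simulated data. The nonspecific level of an array was the 95th percentile over its 23 nonspecific controls. Array number limits the precision.

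The genes, lists, tests and alternatives were chosen with earlier results of these data known. Values were named for at most 6 members per class and comparison with the largest called change, for Cycs and Sdha, and for at most 3 genes of another list per direction. Values of other members stand there to describe each complex and were chosen after they were seen. Same-numbered samples of 1 genotype correlated at -0.05 to 0.14 in their deviations from group means, so numbers were not taken as pairs. Tried instead were 4 other scalings, the mean of a gene's probe sets, a filter and a floor at the nonspecific level, blocks, single comparisons and leaving out each replicate.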

Additional observations from a re-analysis of the deposited data

Results flagged for a closer look

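Ttc19, an assembly and quality factor of complex III, is noted because the difference between its LPS responses in KO and WT cells passed limma's test of that difference. It was 1 of 129 other pathway genes (0.775%), against 1.12% of all genes, so such a pass was no more frequent there. The difference was 1.26 ± 0.27 (log2, KO minus WT, 3 arrays per group, adjusted p = 0.0288), with all 3 KO LPS arrays above all 3 WT LPS arrays. Of 17 alternatives 8 kept the call, with adjusted p between 0.00926 and 0.207 over all 17. As the mean of its probe sets the difference was 0.69 and was not called.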

How the results depend on the processing

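Under every alternative 35 results for single members were followed, at most 6 per class and comparison with the largest called change. Their direction held throughout. Calls among them were lost by scaling: 20 with equal hybridisation controls, 12 with equal medians, 10 in deposited values and 5 with cyclic loess. The mean of a gene's probe sets lost 6, and leaving out 1 replicate lost 3 to 6 of 17 or 18. Called members outside these 35 could change sign, as Cox4i1 did in KO cells after LPS. The filter and the floor at the nonspecific level lost 0. In WT cells 27 members were called after LPS in deposited values and 10 with only the arrays of the comparison, against 17. In KO cells 6 were called in deposited values, 10 with equal medians (6 higher and 4 lower) and 2 with equal hybridisation controls, against 19. KO against WT after LPS gave 2 in deposited values and 1 with equal hybridisation controls, against 0. Vehicle against 0 h gave 1 in WT cells with equal hybridisation controls, against 6, and in KO cells 9 with equal medians (0 higher and 9 lower), 2 with equal hybridisation controls and 3 with the mean of probe sets, against 5. The cause of these shifts was not tested.

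Leaving out 1 replicate gave 12 to 18 calls in WT and 11 to 13 in KO cells after LPS, 0 to 1 for KO against WT after LPS (1 without WT replicate 1), 3 to 3 for vehicle against 0 h in WT and 0 to 2 in KO cells. The TCA median minus the respiratory median was 0.03 after LPS in WT cells, and -0.31 in deposited values and with equal medians or equal hybridisation controls, -0.12 with cyclic loess and 0.16 with complex II counted as respiratory. In KO cells it was 0.13, and -0.10 under the first 3 of these. For vehicle against 0 h it was 0.07 in WT cells, -0.03 with the mean of probe sets, -0.04 with complex II moved and -0.06 to 0.09 without 1 replicate, and in KO cells 0.03, -0.03 with the mean of probe sets and -0.02 to 0.02 without 1 replicate.

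With the replicate number as a block, 34 of the same 35 results kept their call, and Uqcrfs1 in KO cells (vehicle against 0 h, -0.48) did not. The block left 17 calls after LPS in WT and 18 in KO cells. Same-numbered samples correlated at -0.10 to 0.14. For other pathway genes 103 results were followed, at most 3 per list, direction and comparison, and not all of them are named above. Of these, 41 kept their call under every alternative, 62 lost it under some and 0 changed direction.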

Other observations

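Between 0 h and 8 h of vehicle, 0 of 27 other complex I subunits and 0 of 19 assembly factors passed limma's test in either genotype. The same held for the 23 other genes listed under complexes III and IV and ATP synthase. Of 21 other mitochondrial proteins 1 rose and 3 fell in WT cells (19%, against 14.2% of all genes) and 1 rose and 1 fell in KO cells. Sod2 rose by 0.89 and 0.79, Tomm70a, an import receptor, fell by 0.66 and 0.89, and Hspa9, a matrix chaperone, fell by 0.98 in WT cells. Acod1, the itaconate enzyme, rose by 3.68 ± 0.43 in WT (adjusted p = 4.55e-05) and 3.79 ± 0.43 in KO cells (adjusted p = 3.49e-05) without LPS, from a level above the nonspecific control in 2 of 3 arrays of each genotype at 0 h. Myc, a growth regulator, fell by 2.93 ± 0.29 and 3.45 ± 0.29, and Polg, the mitochondrial DNA polymerase, rose by 1.16 ± 0.13 and 1.10 ± 0.13. Bckdha and Pdpr, which fell after LPS, rose here by 1.02 and 0.94 in WT and 0.88 and 0.69 in KO cells. These changes share the vehicle arrays with the LPS comparisons.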
